A study of Mus musculus with 6 samples.

Results

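The 44 focal adhesion and actin cytoskeleton genes were chosen by name, with the integrins left out and earlier results of these data known. They came from 55487 genes in the count tables, and all 44 were among the 13296 genes with enough reads to be tested. They were measured by RNA sequencing in primary mouse hepatocytes that were isolated, cultured and left untreated. The Alb/MDA-9 group (3 libraries) came from mice with a transgene of human MDA-9/SDCBP, also called syntenin, carrying a C-terminal HA tag, bred from WT and heterozygous parents. An enhancer and the core promoter of the mouse albumin gene, which are active in hepatocytes, drive it. The WT group (3 libraries) came from littermates without the transgene. Both groups had the B6CBAF1 background and ate regular chow, and age and sex are not stated. The background is a cross, so parental-strain segments that a group shares cannot be told apart from an effect of the transgene. The libraries are numbered 1 to 3 in each group with no word on separate animals or cultures, and p-values therefore measure only the spread between these libraries, which may be technical.

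Focal adhesions are the sites where a cell grips its matrix. Integrins in the membrane recruit talin and kindlin, vinculin, alpha-actinin, tensin and filamin tie them to actin filaments, and non-muscle myosin pulls on those filaments. The kinases FAK and Src and the adaptors paxillin and p130Cas turn this contact into signals that change how actin is assembled and contracted. Syntenin is a PDZ-domain scaffold that binds syndecans and is known to act with Src and FAK in tumour cells. Hepatocytes plated on a dish spread and form stress fibres, and these genes are known to be well expressed in culture.

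Each library held 16403918 to 19046739 reads on the annotated strand of genes. Levels are given as CPM, read counts scaled to library size with TMM factors. The 10 hepatocyte markers, albumin the most abundant of them, were all tested. They summed to 89535 to 104863 CPM in Alb/MDA-9 and 84923 to 88008 CPM in WT. In Alb/MDA-9, 2 were higher and 1 lower (20% and 10%, against 7.35% and 7.09% of all tested genes). Alb/MDA-9 3 stood apart within its group: it was the highest of the 3 for 27 of the 44 genes, against 36.7% of all tested genes.

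Many genes of this kind are textbook targets of SRF, a transcription factor controlled through the pool of free actin, so promoter windows were searched for its binding motif, the CArG box, on both strands. The windows run from 250 bases before to 50 bases after each start in RefSeq (GRCm38.p6), and 36 of the 44 genes had at least 1 window. A CArG box was found for 5 of these 36 genes (13.9%), against 1.81% of 27025 genes with a window. The 5 genes were Actg1, Fermt2, Myl9, Vcl and Tiam1, the last in 1 of its windows. Their windows are shown 5′ to 3′, with the box in capitals, so that its letters and place can be compared. They lie at chr11:120348446-120348745 on the minus strand for Actg1, chr14:45530016-45530315 on the minus strand for Fermt2, chr2:156775214-156775513 on the plus strand for Myl9, chr14:20929148-20929447 on the plus strand for Vcl and chr16:89974650-89974949 on the minus strand for Tiam1.
Actg1: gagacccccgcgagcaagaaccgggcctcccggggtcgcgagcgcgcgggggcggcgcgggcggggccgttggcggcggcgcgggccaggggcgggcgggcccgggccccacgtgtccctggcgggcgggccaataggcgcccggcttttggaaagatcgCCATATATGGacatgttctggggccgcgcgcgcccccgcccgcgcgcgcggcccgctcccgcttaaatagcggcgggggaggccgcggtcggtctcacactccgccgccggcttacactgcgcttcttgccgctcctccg
Fermt2: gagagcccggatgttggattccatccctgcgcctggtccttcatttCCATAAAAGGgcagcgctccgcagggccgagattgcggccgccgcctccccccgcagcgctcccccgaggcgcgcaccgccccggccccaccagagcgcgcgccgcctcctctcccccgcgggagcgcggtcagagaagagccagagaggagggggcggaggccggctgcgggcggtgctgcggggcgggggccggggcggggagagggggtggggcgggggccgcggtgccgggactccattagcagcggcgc
Myl9: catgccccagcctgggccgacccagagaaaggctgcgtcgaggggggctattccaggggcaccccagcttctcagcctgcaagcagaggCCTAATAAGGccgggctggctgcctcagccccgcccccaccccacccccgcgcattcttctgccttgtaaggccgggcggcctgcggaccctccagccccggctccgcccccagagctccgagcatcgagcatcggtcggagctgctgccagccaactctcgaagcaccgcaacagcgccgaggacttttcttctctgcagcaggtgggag
Vcl: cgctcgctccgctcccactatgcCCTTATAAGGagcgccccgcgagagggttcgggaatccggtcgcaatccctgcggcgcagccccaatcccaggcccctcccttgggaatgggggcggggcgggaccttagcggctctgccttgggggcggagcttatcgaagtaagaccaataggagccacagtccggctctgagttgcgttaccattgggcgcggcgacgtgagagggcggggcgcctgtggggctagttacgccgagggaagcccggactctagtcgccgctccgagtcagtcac
Tiam1: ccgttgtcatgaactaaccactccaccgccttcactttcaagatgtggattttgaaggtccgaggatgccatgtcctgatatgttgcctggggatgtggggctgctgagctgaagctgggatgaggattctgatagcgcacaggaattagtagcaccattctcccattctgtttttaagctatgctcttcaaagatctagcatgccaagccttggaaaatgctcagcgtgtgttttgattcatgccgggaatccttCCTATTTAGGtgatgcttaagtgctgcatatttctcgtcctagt

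Counted from the start, with bases before it negative, the box began at -90 in Actg1, -161 in Myl9, -204 in Fermt2, -227 in Vcl and 6 in Tiam1. Of these 5 genes, Tiam1 was lower in Alb/MDA-9 and the others did not pass the test. Among the 9 genes that rose, 7 had a window, and 0 of the 7 held a box there. So few genes cannot be told apart from the 1.81% of all genes with a window. Actb and Cttn rose too but had no window, so they were not searched. Other short motifs, searched on both strands, were about as frequent as in all genes with a window. CCAAT was found for 15 of the 36 genes (41.7%, against 41.1%), GGAATG, a TEAD motif, for 6 (16.7%, against 16.6%) and TGAGTCA, an AP-1 motif, for 2 (5.56%, against 5.95%). No CArG box overlapped a CCAAT in these windows. The window of Rhob, which had the largest rise of the 44 genes, is shown for comparison (chr12:8499960-8500259 on the minus strand), with its CCAAT motifs, 1 on each strand, in capitals. A match is a run of letters and does not show binding, and a window without an exact match does not show its absence.
Rhob: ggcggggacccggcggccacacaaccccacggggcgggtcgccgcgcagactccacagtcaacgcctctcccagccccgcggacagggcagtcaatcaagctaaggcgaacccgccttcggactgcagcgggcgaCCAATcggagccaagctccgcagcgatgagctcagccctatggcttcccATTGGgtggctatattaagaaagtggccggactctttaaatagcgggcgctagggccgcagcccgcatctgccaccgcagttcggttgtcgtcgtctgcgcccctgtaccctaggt

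In Alb/MDA-9, 9 of the 44 genes were higher and 4 lower, 29.5% in all, against 14.4% of all tested genes (called at an adjusted p under 0.05 by edgeR's quasi-likelihood test). The 9 higher genes (20.5%, against 7.35% of all tested genes) were Rhob, Tns3, Cd44, Vim, Actb, Ilk, Actn1, Tpm1 and Cttn, and their rises were 1.21-fold to 1.54-fold. The 4 lower genes (9.09%, against 7.09% of all tested genes) were the Rac exchange factors Tiam2 and Tiam1, the RhoA exchange factor Arhgef2 and the annexin Anxa1. These shares of all tested genes are also the background for the counts by role below. They are not matched for level of expression, on which the shares of rises and falls depend. Both the 44 genes and the further lists were chosen with earlier results of these data known, so their shares are descriptive only. The median log2 change of the 44 was 0.10, against -0.00 for all tested genes, and 32 of the 44 changes were positive. For 22 of the 44 genes no library of one group fell within the range of the other (50%, against 33.6% of all tested genes). Alb/MDA-9 lay above WT for 16 of the 44, against 17.1% of all tested genes, and below it for 6 of the 44, against 16.5% of all tested genes. The split depends on scaling: with library totals in place of TMM factors the median of all tested genes was -0.11 and that of the 44 was 0.00, with 5 of the 44 called higher and 7 lower.

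**Figure D1:**
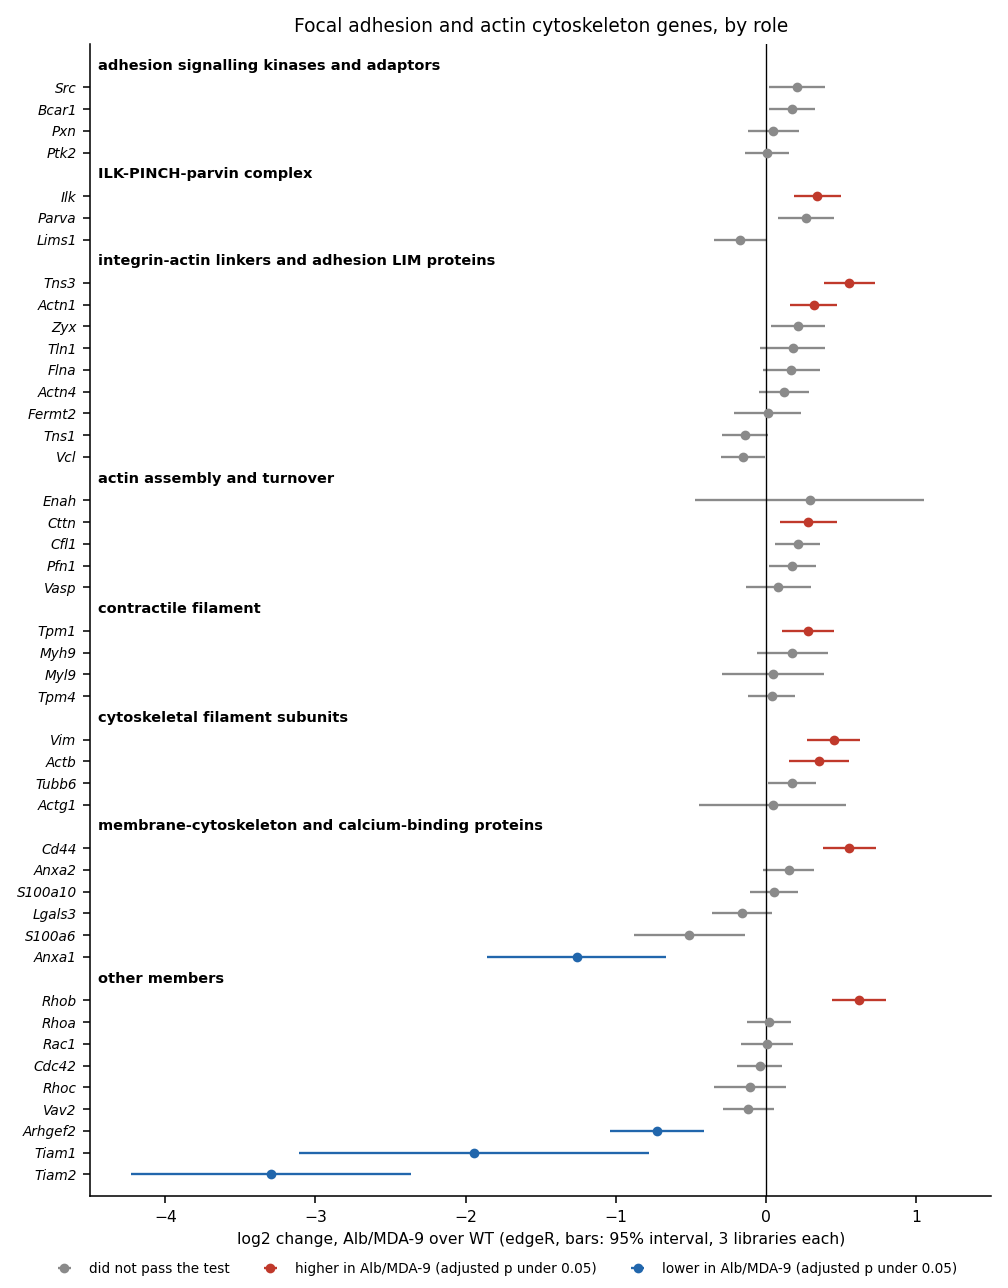
Log2 change of each of the 44 genes, Alb/MDA-9 over WT, grouped by role, with 95% intervals from the edgeR fit (3 libraries a group). Genes past the test are red where higher and blue where lower; the 9 rises lie between 0.28 and 0.62, and the 4 falls between -0.73 and -3.30.

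The rises and falls lay at different levels of expression. The 9 higher genes averaged 98.8 to 2668 CPM over all libraries, and the 4 lower genes 0.520 to 12.0 CPM. Of the 7 genes that averaged under 20 CPM, 4 fell and 3 (Enah, Myl9 and Actg1) did not pass the test. The place of Actg1 among them is uncertain, as it has near-identical copies and reads that map to several places are left out. Of the other 37, 9 rose and 28 did not pass. All tested genes leaned the same way: 11.2% were higher and 5.56% lower among the 6777 at or above 20 CPM, while 3.39% were higher and 8.68% lower among the 6519 below it.

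**Figure D2:**
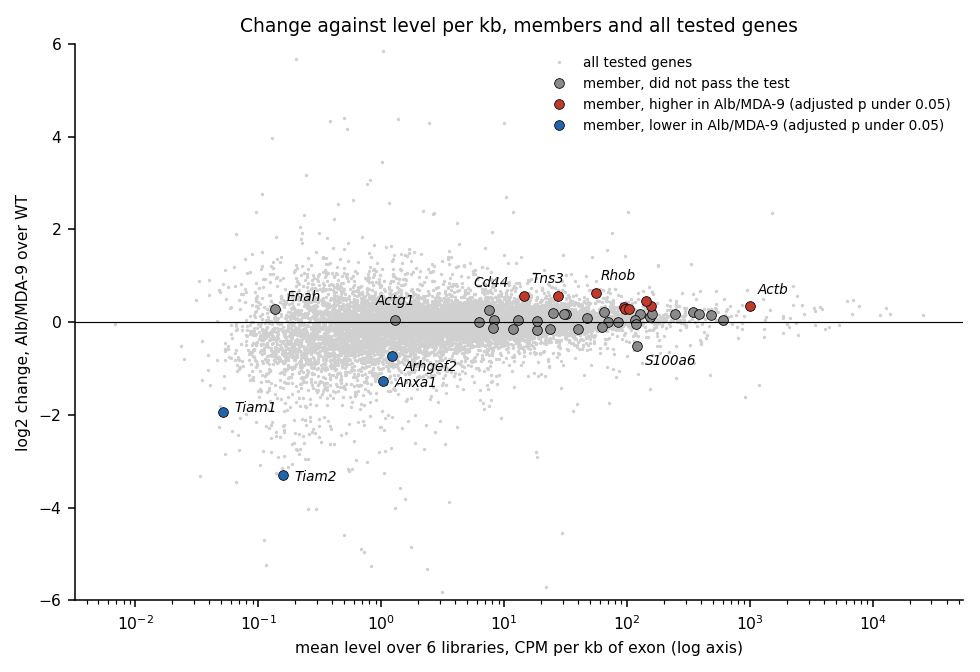
Log2 change, Alb/MDA-9 over WT, against the mean level over 6 libraries in CPM per kb of exon (log axis), for all tested genes (small grey points) and the 44 genes (large points); 12 genes beyond a log2 change of 6 in either direction lie outside the axis. The genes that fell sit at the low end, at or below 1.22 CPM per kb, and those that rose between 14.6 and 996 CPM per kb.

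Of the kinases and adaptors that carry the adhesion signal, 0 of 4 passed edgeR's test; 2 of them, Src and Bcar1, had an unadjusted p under 0.05, and 0 passed with DESeq2 or voom. Src, the tyrosine kinase, had 105, 115 and 128 CPM in Alb/MDA-9 1 to 3, against 93.8, 106 and 102 CPM in WT 1 to 3. The lowest Alb/MDA-9 library fell within the WT range, and the difference was 0.21 on the log2 scale with an SE of 0.08 (edgeR adjusted p = 0.131), with a 95% interval of 0.02 to 0.39. Ptk2, which encodes FAK, had 76.7, 73.1 and 73.8 CPM in Alb/MDA-9, against 73.1, 74.9 and 74.4 CPM in WT. These libraries overlapped, and the interval of the log2 change was -0.14 to 0.15. Bcar1, which encodes the Src substrate p130Cas, had 146, 151 and 164 CPM in Alb/MDA-9, against 137, 136 and 135 CPM in WT. Every Alb/MDA-9 library lay above every WT library, yet the difference of 0.18 on the log2 scale with an SE of 0.07 (edgeR adjusted p = 0.121) did not pass. The paxillin gene Pxn overlapped between groups, with an interval of -0.12 to 0.22. These are transcript levels, and FAK and Src are controlled mainly by phosphorylation, which was not measured.

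The kinase-like protein ILK, PINCH-1 (Lims1) and alpha-parvin (Parva) form a complex that ties integrin tails to actin, and 1 of the 3 genes rose. Ilk (ENSMUSG00000030890, chromosome 7, 105736592 to 105742925 on GRCm38, as are all gene coordinates here) had 445, 501 and 494 CPM in Alb/MDA-9, against 382, 377 and 376 CPM in WT. The libraries did not overlap, and the rise was 0.34 on the log2 scale with an SE of 0.07 (edgeR adjusted p = 0.00662). The antisense gene Taf10 shares 76.8% of the exon bases of Ilk, so the value rests on the strand of the reads; counted on either strand, Ilk changed by 0.47 on the log2 scale. Parva averaged 84.2 ± 9.75 CPM in Alb/MDA-9, against 70.1 ± 2.03 CPM in WT (SD, n = 3), without overlap but with an edgeR adjusted p of 0.0602; it was called without Alb/MDA-9 1, with voom and with no filter (adjusted p = 0.0185, 0.0257 and 0.0341). Lims1 leaned the other way and overlapped, at -0.17 on the log2 scale with an SE of 0.08 (edgeR adjusted p = 0.186), and was called lower without Alb/MDA-9 3 (adjusted p = 0.0476).

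Among the proteins that link integrins to filaments 2 of 9 genes rose, Tns3 and Actn1, and the other 7 did not pass. Tns3 (ENSMUSG00000020422, chromosome 11, 8431652 to 8664535), which encodes tensin-3, had 388, 386 and 329.5 CPM in Alb/MDA-9, against 245, 249 and 258 CPM in WT. The lowest Alb/MDA-9 library, number 3, still lay above every WT library, and the rise was 0.56 on the log2 scale with an SE of 0.08 (edgeR adjusted p = 0.000547). Its paralogue Tns1 lay lower in all Alb/MDA-9 libraries, at 179.8 ± 7.15 CPM in Alb/MDA-9, against 198 ± 10.3 CPM in WT (SD, n = 3), without passing the test (edgeR adjusted p = 0.209), and was called lower with library totals (adjusted p = 0.0445). Per kb of exon, the share of Tns3 in the sum of both was 75.7%, 76.1% and 71.6% in Alb/MDA-9 1 to 3, against 62.6%, 64.4% and 66.1% in WT 1 to 3. The exact two-sided permutation test on these shares gave p = 0.1, the smallest that 3 against 3 libraries allow (adjusted p = 0.125 over 5 shares of gene families).

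Alpha-actinins cross-link actin filaments. Actn1 (ENSMUSG00000015143, chromosome 12, 80167547 to 80260371) had 547, 586 and 603 CPM in Alb/MDA-9, against 466, 481 and 447 CPM in WT, a rise of 0.32 on the log2 scale with an SE of 0.07 (edgeR adjusted p = 0.0102). That call ended with library totals, without Alb/MDA-9 2 and without WT 3 (edgeR adjusted p = 0.0701, 0.0521 and 0.0601). Actn4, its paralogue and the linker gene with the highest level per kb, had 907, 984 and 1040.3 CPM in Alb/MDA-9, against 857, 933 and 906 CPM in WT. These overlapped, with an interval of the log2 change of -0.05 to 0.29. Per kb of exon, the share of Actn1 in the sum of both was 39.6% ± 0.494 in Alb/MDA-9, against 36.4% ± 1.13 in WT (SD, n = 3), with an exact permutation p of 0.1, the smallest possible, and an adjusted p of 0.125.

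Vcl encodes vinculin, which reinforces talin under tension, and holds a CArG box in its window. It had 325, 302 and 295 CPM in Alb/MDA-9, against 342, 342 and 343 CPM in WT. All Alb/MDA-9 libraries lay below all WT libraries, but the difference of -0.16 on the log2 scale with an SE of 0.07 (edgeR adjusted p = 0.156) did not pass. It was called with library totals (adjusted p = 0.0193). The talin gene Tln1, the filamin gene Flna, the zyxin gene Zyx and the kindlin-2 gene Fermt2 had log2 changes of 0.18, 0.17, 0.21 and 0.01, and Zyx was called without WT 1 and with voom (adjusted p = 0.0281 and 0.0152). Alb/MDA-9 3 differed from its group for 2 of them. Tln1 stood at 377 CPM there and at 279.9 and 297 CPM in Alb/MDA-9 1 and 2, while Fermt2 stood at 298 CPM there and at 409.9 and 386 CPM in the others.

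**Figure D3:**
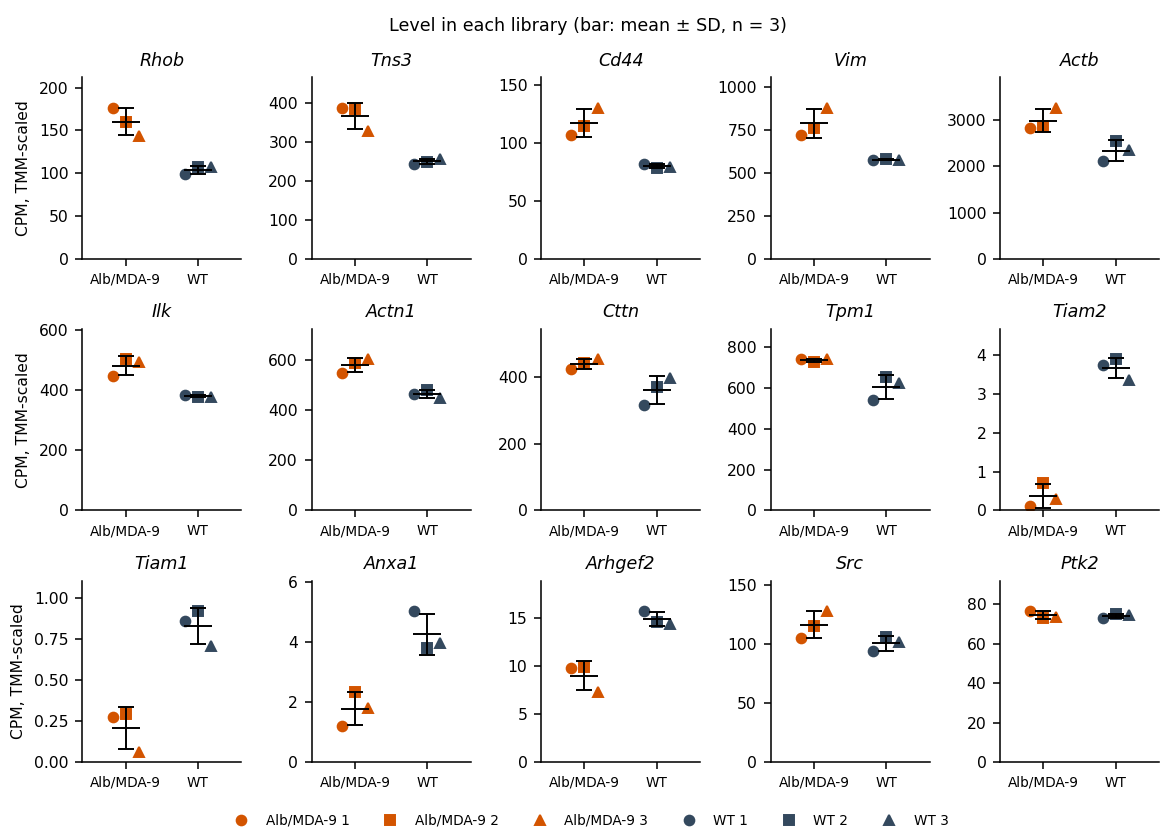
Level of the 13 genes that passed the test, and of Src and Ptk2, in each library, in TMM-scaled CPM on axes from 0 (bars: mean ± SD, n = 3). Alb/MDA-9 lies above WT without overlap for 9 of the 13 genes and below it for 4, while Src and Ptk2 overlap.

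Of 5 genes for the assembly and turnover of actin 1 rose. Cttn (ENSMUSG00000031078, chromosome 7, 144435733 to 144471009), which encodes cortactin, a protein that stabilises branched actin, had 423, 442 and 454 CPM in Alb/MDA-9, against 316, 370.3 and 399 CPM in WT. The groups came close, and the rise was 0.28 on the log2 scale with an SE of 0.09 (edgeR adjusted p = 0.0469). Pfn1, the profilin gene and the one with the highest level per kb in this group, had 929, 1000.3 and 1023 CPM in Alb/MDA-9, against 828, 901 and 882 CPM in WT. Pfn1 and the filament-severing gene Cfl1 both lay higher in every Alb/MDA-9 library without passing (edgeR adjusted p = 0.136 and 0.0600), and Cfl1 was called without Alb/MDA-9 3, with DESeq2 and with voom (adjusted p = 0.0381, 0.0159 and 0.0263). The filament elongators Vasp and Enah overlapped, with intervals of -0.13 to 0.30 and -0.47 to 1.05; Enah was at only 2.10 to 4.48 CPM in Alb/MDA-9 and 1.41 to 3.38 CPM in WT.

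Tropomyosins coat actin filaments and myosin II pulls on them, and 1 of 4 contractile genes rose. Tpm1 (ENSMUSG00000032366, chromosome 9, 67022590 to 67049406) had 741, 727 and 742 CPM in Alb/MDA-9, against 541, 655 and 625 CPM in WT, a rise of 0.28 on the log2 scale with an SE of 0.08 (edgeR adjusted p = 0.0356). Myh9, the heavy chain of non-muscle myosin IIA and the contractile gene with the highest level per kb, had 2226, 2123 and 2251 CPM in Alb/MDA-9, against 1573, 2154 and 2114 CPM in WT. The groups overlapped, and WT 1 was the low library. WT 1 was also the lowest WT library for Actb, Tpm1 and Cttn. Without WT 1 the log2 change of Myh9 was 0.04, against 0.18 with it, and the calls of Actb, Tpm1 and Cttn ended (edgeR adjusted p = 0.0778, 0.113 and 0.146). Tpm4 and the light chain gene Myl9 overlapped, with intervals of -0.12 to 0.19 and -0.30 to 0.39.

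Of 4 genes for filament subunits 2 rose. Actb (ENSMUSG00000029580, chromosome 5, 142903115 to 142906754), which encodes beta-actin, the gene with the highest level per kb of the 44 and a common choice for normalising expression, had 2825, 2877 and 3271 CPM in Alb/MDA-9, against 2117, 2554 and 2360.3 CPM in WT. It rose 1.28-fold, or 0.35 on the log2 scale with an SE of 0.09 (edgeR adjusted p = 0.0223). The call also ended with library totals, without Alb/MDA-9 2 and without WT 3 (adjusted p = 0.0909, 0.0597 and 0.0733). Vim (ENSMUSG00000026728, chromosome 2, 13573927 to 13582826), which encodes the intermediate filament protein vimentin, had 720.2, 759.9 and 877 CPM in Alb/MDA-9, against 576, 579 and 571 CPM in WT. All Alb/MDA-9 libraries lay above the narrow range of WT, a rise of 0.45 on the log2 scale with an SE of 0.08 (edgeR adjusted p = 0.00294). The beta-tubulin gene Tubb6 averaged 633 ± 40.4 CPM in Alb/MDA-9, against 562 ± 19.98 CPM in WT (SD, n = 3), without overlap but with an edgeR adjusted p of 0.146; it was called without Alb/MDA-9 3 (adjusted p = 0.0248).

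Actg1, which encodes gamma-actin, was at only 2.91 to 3.85 CPM in Alb/MDA-9 and 3.08 to 3.96 CPM in WT. It has 6 near-identical copies, among them Actg-ps1 with 98.3% identity over 1108 bases, and the counting leaves out reads that map to several places, so its level is uncertain. Such copies, alike at 95% or more over at least 300 bases, were found for 8 of the 44 genes, the others being Ilk, Parva, Cttn, Cfl1, Tpm4, Actb and Rhoa. A further limit is that 14 of the 44 share exon bases with another gene, but only 1, Actg1, with a gene on the same strand. For the rest the other gene lies on the opposite strand, so their counts rest on the strand of the reads.

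Rhob (ENSMUSG00000054364, chromosome 12, 8497661 to 8500009), whose product sits on endosomes and which is induced by stress and growth factors, had 177, 160.4 and 144 CPM in Alb/MDA-9 1 to 3, against 98.8, 107 and 107 CPM in WT 1 to 3. All Alb/MDA-9 libraries lay above all WT libraries, a rise of 1.54-fold or 0.62 on the log2 scale with an SE of 0.08 (edgeR adjusted p = 0.000378). Rhoa, Rac1, Rhoc and Cdc42 did not pass. The 95% interval of the log2 change was -0.13 to 0.17 for Rhoa, -0.17 to 0.18 for Rac1, -0.35 to 0.14 for Rhoc and -0.19 to 0.11 for Cdc42. Cdc42, whose product directs filopodia, had 340.2, 341 and 349 CPM in Alb/MDA-9, against 376, 341 and 343 CPM in WT, and the groups overlapped. Rhoc depended on Alb/MDA-9 3, where it stood at 119 CPM, above the 87.1 and 88.1 CPM of Alb/MDA-9 1 and 2. Without that library it was called lower (-0.27 on the log2 scale, edgeR adjusted p = 0.0275).

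Tiam2 (ENSMUSG00000023800, chromosome 17, 3326573 to 3531344), which encodes an exchange factor that activates Rac, had 2, 12 and 5 reads in Alb/MDA-9, against 74, 76 and 57 reads in WT. That is 0.111, 0.699 and 0.301 CPM in Alb/MDA-9, against 3.74, 3.90 and 3.37 CPM in WT, a difference of -3.30 on the log2 scale with an SE of 0.43 (edgeR adjusted p = 0.000318). Its size moved with the libraries and the column used, as it was -4.14 without Alb/MDA-9 2, -2.85 without Alb/MDA-9 1 and -1.99 when reads of either strand were counted. Every WT library held more than 4 times the reads of any Alb/MDA-9 library. On the opposite strand, where the antisense gene Tfb1m shares 142 exon bases, the Tiam2 locus had 31, 33 and 30 reads in Alb/MDA-9, against 28, 38 and 24 reads in WT, which overlap. Tiam1 (ENSMUSG00000002489, chromosome 16, 89787111 to 90143769), its paralogue and also a Rac activator, had 5, 5 and 1 reads in Alb/MDA-9, against 17, 18 and 12 reads in WT, a difference of -1.94 on the log2 scale with an SE of 0.54 (edgeR adjusted p = 0.0302). The call ended when any 1 library was left out (edgeR adjusted p = 0.0527 to 0.117). The floor, the level of 3 reads, was 0.151 to 0.181 CPM, and Tiam1 had 0.276, 0.291 and 0.0602 CPM in Alb/MDA-9, so its level there is poorly measured.

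Arhgef2 (ENSMUSG00000028059, chromosome 3, 88605966 to 88648052) encodes GEF-H1, an activator of RhoA that is held on microtubules. It had 9.84, 9.96 and 7.29 CPM in Alb/MDA-9, against 15.8, 14.6 and 14.4 CPM in WT. The libraries did not overlap, and the difference was -0.73 on the log2 scale with an SE of 0.14 (edgeR adjusted p = 0.00496). Vav2, an exchange factor controlled by tyrosine kinases, had 51.8, 50.5 and 58.6 CPM in Alb/MDA-9, against 58.6, 57.2 and 58.7 CPM in WT. It did not pass the test, with an interval of -0.29 to 0.05.

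Of 6 membrane-cytoskeleton and calcium-binding proteins 1 gene rose and 1 fell. Cd44 (ENSMUSG00000005087, chromosome 2, 102811141 to 102901665), the hyaluronan receptor that couples to actin through ezrin-type linkers, had 108, 115 and 131 CPM in Alb/MDA-9, against 82.0, 78.8 and 79.3 CPM in WT. All Alb/MDA-9 libraries lay above WT, a rise of 0.55 on the log2 scale with an SE of 0.08 (edgeR adjusted p = 0.000686). Anxa1 (ENSMUSG00000024659, chromosome 19, 20373428 to 20390944), an annexin gene whose product binds membranes with calcium, had 1.22, 2.33 and 1.81 CPM in Alb/MDA-9, against 5.05, 3.79 and 3.96 CPM in WT. All Alb/MDA-9 libraries lay below WT (-1.26 on the log2 scale, SE 0.27, edgeR adjusted p = 0.00861), and the call ended without WT 1 (adjusted p = 0.0506).

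The products of Anxa2 and S100a10 form a complex at the membrane, and neither gene passed. S100a10, with the highest level per kb in this group, had 709, 808 and 733 CPM in Alb/MDA-9, against 747, 717 and 705 CPM in WT, and Anxa2 averaged 1901 ± 135 CPM in Alb/MDA-9, against 1713 ± 48.6 CPM in WT (SD, n = 3). S100a6, which encodes calcyclin, a calcium-binding protein, had 110.4, 112 and 186 CPM in Alb/MDA-9, against 225, 186 and 171 CPM in WT. Alb/MDA-9 3 fell within the WT range and the other 2 Alb/MDA-9 libraries below it. The difference was -0.51 on the log2 scale with an SE of 0.17 (edgeR adjusted p = 0.0663), and without Alb/MDA-9 3 it was -0.80 (adjusted p = 4.41e-05). It was also called with library totals, with voom and with no filter (adjusted p = 0.0381, 0.00288 and 1.77e-08). The SE of S100a6 with no filter was only 0.08, so that last value understates the spread seen here. S100a6 was not called with DESeq2 (adjusted p = 0.262). Leaving out any library other than Alb/MDA-9 3 gave no call either (edgeR adjusted p = 0.0716 to 0.251). The galectin-3 gene Lgals3 overlapped, with an interval of -0.36 to 0.04.

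Vim, Cd44 and Anxa1 are also well expressed by the non-parenchymal cells of the liver, whose markers differed between the groups. Of 12 Kupffer cell and macrophage markers 8 fell (66.7%, against 7.09% of all tested genes) and the other 4 did not pass (median log2 change -0.67). Their sums were 239 to 395 CPM in Alb/MDA-9 and 412 to 428 CPM in WT. Cd68 was the largest term of these sums, at 322, 284 and 137 CPM in Alb/MDA-9 and 262, 267 and 284 CPM in WT. Of 11 stellate cell and fibroblast markers tested 5 fell (45.5%, median -0.54), with sums of 198 to 265 CPM in Alb/MDA-9 and 295 to 316 CPM in WT. Of 12 endothelial markers 5 fell (41.7%, median -0.36), with sums of 213 to 229 CPM in Alb/MDA-9 and 281 to 300 CPM in WT. Of 5 cholangiocyte and mesothelial markers tested 2 rose and 2 fell (40% each, against 7.35% and 7.09% of all tested genes). This list summed to 80.2 to 83.9 CPM in Alb/MDA-9 and 58.5 to 65.9 CPM in WT, and Upk3b, Upk1b and Cftr were at 0 in every library. Lymphocyte and neutrophil markers summed to 0.166 to 1.16 CPM in Alb/MDA-9 and 0.473 to 0.615 CPM in WT, with 5 of 10 at 0 in every library. Anxa1 moved in the direction of the Kupffer, stellate and endothelial lists. Vim and Cd44 moved against those lists and in the direction of the cholangiocyte and mesothelial sum, whose called genes went both ways. Other members were not set against these lists. The part of these cells in the results was not tested. In bulk samples, fewer cells of a type and less RNA per cell cannot be told apart.

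Further genes of the pathway, 149 with 141 tested, gave 25 higher and 7 lower (17.7% and 4.96%, against 7.35% and 7.09% of all tested genes), with a median log2 change of 0.05. With library totals 12 were higher and 10 lower. Among 34 other focal adhesion genes 9 rose and 2 fell (32.4%, against 14.4% of all tested genes). Pdlim7, which encodes a PDZ and LIM domain protein of actin filaments, had 370.0, 384 and 388 CPM in Alb/MDA-9, against 222, 233 and 249 CPM in WT, a rise of 0.70 on the log2 scale with an SE of 0.07 (edgeR adjusted p = 4.70e-05). The LIM-only gene Fhl2 had 45.4, 47.6 and 52.5 CPM in Alb/MDA-9, against 34.3, 32.1 and 27.4 CPM in WT, a rise of 0.63 on the log2 scale with an SE of 0.10 (edgeR adjusted p = 0.00103). The filamin gene Flnc, best known from muscle, had 27.5, 33.4 and 35.5 CPM in Alb/MDA-9, against 96.4, 91.8 and 76.9 CPM in WT. It fell in every Alb/MDA-9 library below the WT range, at -1.46 on the log2 scale with an SE of 0.11 (edgeR adjusted p = 3.38e-06). The kindlin-1 gene Fermt1, singled out after its values were seen, was low in both groups, with 5.14, 3.84 and 3.91 CPM in Alb/MDA-9, against 0.707, 0.769 and 0.710 CPM in WT, a rise of 2.55 on the log2 scale with an SE of 0.28 (edgeR adjusted p = 8.37e-05).

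Of 27 other contractile and SRF-linked genes 6 rose and 1 fell (25.9%, against 14.4% of all tested genes). Tpm2, a further tropomyosin gene, had 213, 217 and 223 CPM in Alb/MDA-9, against 68.5, 88.5 and 90.7 CPM in WT. Its rise was 1.40 on the log2 scale with an SE of 0.10 (edgeR adjusted p = 2.17e-06). Per kb of exon, its share in the sum of the 4 tropomyosin genes was 22.6% ± 0.725 in Alb/MDA-9, against 10.8% ± 0.955 in WT (SD, n = 3), with an exact permutation p of 0.1, the smallest possible, and an adjusted p of 0.125. The share of Tpm1 was 34.4% ± 0.888 in Alb/MDA-9, against 35.6% ± 1.03 in WT (SD, n = 3), with an exact permutation p of 0.2. The calponin gene Cnn1 rose to 12.0 ± 2.11 CPM in Alb/MDA-9, against 7.21 ± 2.07 CPM in WT (SD, n = 3), with an edgeR adjusted p of 0.0306. The call of Cnn1 ended without Alb/MDA-9 1, Alb/MDA-9 2, WT 1 or WT 2 (adjusted p = 0.0632 to 0.138). Ssh1, a cofilin phosphatase gene, was lower, with a change of -0.46 on the log2 scale with an SE of 0.08 (edgeR adjusted p = 0.00234).

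Of 19 Arp2/3 and WAVE genes, which build branched actin, Arpc5 rose (0.34 on the log2 scale, SE 0.08, edgeR adjusted p = 0.0137) and Baiap2 fell (-0.45 on the log2 scale, SE 0.07, edgeR adjusted p = 0.00113). Together these 2 are 10.5% of the 19, below the 14.4% of all tested genes. Of 36 other actin-binding genes 4 rose and 2 fell, or 16.7%, near the 14.4% of all tested genes. They include the L-plastin gene Lcp1 (0.46 on the log2 scale, SE 0.07, edgeR adjusted p = 0.00133), the formin gene Daam1 (0.37 on the log2 scale, SE 0.07, edgeR adjusted p = 0.00590) and the ezrin gene Ezr (-0.45 on the log2 scale, SE 0.12, edgeR adjusted p = 0.0223). The call of Ezr ended without Alb/MDA-9 1, Alb/MDA-9 2, WT 2 or WT 3 (adjusted p = 0.0582 to 0.0948), and that of Arpc5 with library totals (adjusted p = 0.0621).

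**Figure D4:**
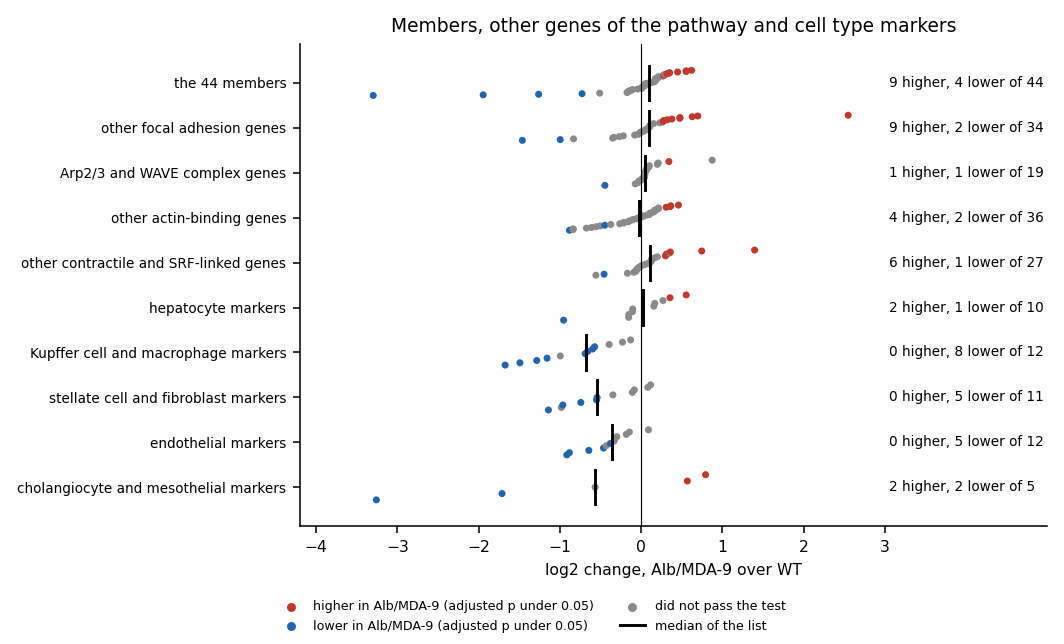
Log2 change, Alb/MDA-9 over WT, of each tested gene among the 44, in 4 lists of other pathway genes and in 5 marker lists; points are genes and black bars are list medians. Red points (higher) outnumber blue ones (lower) among the 44 and in 3 of the 4 pathway lists, while the Kupffer, stellate and endothelial lists hold blue and grey points.

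The 13 calls differed in how they stood up to other settings. Rhob, Tns3, Cd44, Vim, Ilk and Arhgef2 each passed in 14 of 15 settings, all but the test against a fold of 1.5, and Tiam2 passed in all 14 that tested it. Tpm1 passed in 6 of 15 and Cttn in 7 of 15, and Tiam1 in 5 of 14.

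**Figure D5:**
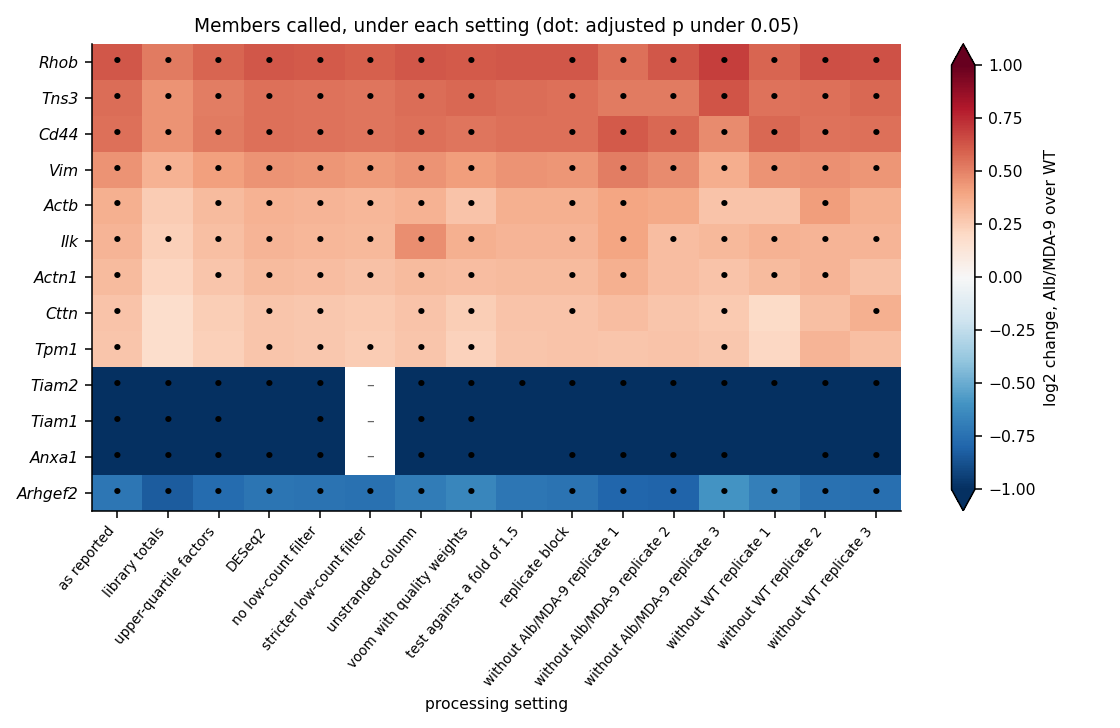
Log2 change, Alb/MDA-9 over WT, of the 13 genes called, as reported and under 15 other settings; colours saturate at -1 and 1, dots mark an adjusted p under 0.05 and dashes mark genes that the filter removed. The sign of each of the 13 genes is the same in every setting that tested it, and dots are fewest for Tiam1, Tpm1 and Cttn.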

How the data were processed

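RNA sequencing counts of 3 Alb/MDA-9 and 3 WT libraries were used. The submitters' processing notes name STAR 2.7.9a, Trim Galore 0.6.6, FastQC 0.11.2, edgeR 3.18.1 and, as builds, mm10 and GRCm38. The deposited tables hold raw counts of reads per gene in STAR's layout, which leaves out reads mapped to several places or genes; the annotation release is not stated. The reverse-strand column was used, which held 96.9% to 97.2% of the reads of both stranded columns. Neither library sizes nor tests include the 4 rows that name no gene. Of all reads, 9.22% to 10.4% were unmapped, 18.7% to 20.2% mapped to several places and 0.791% to 0.835% lay over several genes. A further 4.90% to 6.01% were assigned to no gene on the counted strand. Names and coordinates came from GENCODE M21, which held 55227 of 55487 identifiers.

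Genes were filtered with filterByExpr (minimum count 10), scaled by TMM and tested with edgeR 4.0.16 in R 4.3.3 (quasi-likelihood, no covariates), with Benjamini-Hochberg adjustment over 13296 genes. The SE is the log2 change over the square root of F. The script was tested on simulated data. Libraries of a group differed by more than sampling noise (chi-square per degree of freedom 3.16 to 21.7). Copies were searched with blastn 2.17.0+. Floors of 3 reads cover counting error only. The members and lists were chosen with earlier results of these data known. Values per library are given for called members with a log2 change of at least 0.5, Src, Ptk2, the member of highest level per kb in each group, and the 3 called genes of largest change with at least 5 CPM in each pathway list; those of other members were added after their values were seen. Alternatives were library totals, upper-quartile factors, DESeq2 1.42.0, voom with quality weights (limma 3.58.1), no filter, a stricter filter (5 CPM in 3 libraries), the unstranded column, a test against a fold of 1.5, a replicate block and each library left out. One list of pathway genes and some groupings of the members are not reported here.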

Additional observations from a re-analysis of the deposited data

How the results depend on the processing

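As reported, 9 of the 44 genes were higher and 4 lower. With library totals these were 5 and 7. The test against a fold of 1.5 called 0 higher and 1 lower, namely Tiam2. The stricter filter, which removed Tiam1, Tiam2 and Anxa1, left 1 lower. With 1 library left out, 5 to 11 were higher and 2 to 6 lower, with 5 higher without Alb/MDA-9 2 and 2 lower without WT 1. The other pathway genes, 25 higher and 7 lower as reported, gave 12 higher with library totals, 2 higher and 1 lower against a fold of 1.5, and 15 to 28 higher and 6 to 13 lower with 1 library left out (15 higher without WT 2, 13 lower without Alb/MDA-9 3). Of all genes 1920 were called, 240 against a fold of 1.5 and 1018 to 2386 with 1 library left out (1131 without Alb/MDA-9 2, 1168 without WT 1 and 1018 without WT 2). Calls were kept in 11 of 15 settings for Actn1, 10 of 15 for Actb and 12 of 14 for Anxa1. The median of the 44 minus that of all genes was 0.07 to 0.16. The sign turned in at least 1 setting for 12 of the 44 genes, 0 of them called as reported, and for 10 with library totals. Of those whose values per library the naming rule gives, 3 turned. Ptk2 had -0.097 with library totals, -0.0327 with upper-quartile factors, -0.0019 with no filter, -0.015 with the stricter filter and -0.00415 with voom, and -0.0127 to 0.019 with 1 library left out. Cdc42 had -0.0658 to 0.00537 with 1 library left out. S100a10 had -0.0519 with library totals and -0.00606 to 0.0934 with 1 library left out. The cause was not tested. Same-numbered libraries did not deviate together (correlations -0.0619 to -8.73e-05, against -0.0332 to 0.0659 for libraries with different numbers). With 3 libraries a group this cannot show whether a number marks a shared day or litter, which the labels do not say. With the replicate block 8 of the 44 genes were higher and 3 lower, and 1601 of all genes were called. Depth limits the genes under about 1 CPM, Tiam1 among them.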
